A study of Mus musculus with 7 samples.

Results

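The retinal pigment epithelium (RPE) owes its identity to a small set of transcription factors, and 6 of them, Mitf, Tfec, Otx2, Lhx2, Pax6 and Sox9, were followed here. They were picked by gene symbol from the deposited count table, which had 21861 rows, and all 6 were expressed enough to be among the 15075 genes tested. The tissue was RPE of aged mice, collected 12 weeks after treatment with an adeno-associated virus (AAV) that carried either GFP (AAV-GFP, 3 libraries) or GSTA4 (AAV-GSTA4, 4 libraries). GFP is a fluorescent reporter and its vector is the control, while GSTA4 is an enzyme that couples glutathione to reactive lipid aldehydes. All libraries thus come from eyes that received a vector, and the labels name no untreated group. The labels give neither the strain, sex, age in months, vector promoter and dose, nor whether a library is an eye, an animal or a pool, so the p-values measure the spread between these samples, which may in part be technical.

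MITF and TFEC are related basic helix-loop-helix leucine zipper proteins of the MiT family, which bind E-box elements in pigment genes. OTX2 is a homeodomain protein needed to form the RPE and, in the adult, for its pigment and visual cycle genes, and it works together with MITF. LHX2 (a LIM homeodomain protein), PAX6 (a paired domain and homeodomain protein) and SOX9 (an HMG-box protein) act earlier in the optic vesicle as well as in the mature layer. Each is also made by other cells that an RPE preparation may carry: MITF by choroidal melanocytes, TFEC by macrophages, OTX2 by photoreceptors and bipolar cells, PAX6 by amacrine and ganglion cells, lens and the ocular surface, and LHX2 and SOX9 by Müller glia. In bulk RNA, fewer cells of a type and less RNA per cell cannot be told apart.

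Library depth ranged from 15329181 to 28998964 counts. The transgene row hGSTA4 held 1 to 3 counts in AAV-GFP and 45 to 5239 in AAV-GSTA4, so it separated the groups. The d2EGFP row did not: AAV-GFP replicate 1 had 99 counts, fewer than the 163 of AAV-GSTA4 replicate 1. The library with 45 hGSTA4 counts, AAV-GSTA4 replicate 3, had the most Otx2 and Mitf and the least Pax6 of all libraries. AAV-GFP replicate 3 stood apart, with a mean correlation of log2 CPM to the other libraries of 0.838 against 0.910 to 0.926 for the rest, and results below are also given without it and without AAV-GFP replicate 1 where they change. RPE markers were abundant: Rgr (a retinal G protein-coupled receptor) was at 26169 ± 12881 CPM (n = 3, SD) in AAV-GFP and 49094 ± 11187 CPM (n = 4, SD) in AAV-GSTA4, and Rpe65 (the visual cycle isomerase) at 5255 ± 3743 CPM (n = 3, SD) and 8580 ± 2787 CPM (n = 4, SD). CPM is the count scaled to the TMM-adjusted library total. No listed marker of another eye cell type was at 0 in all 7 libraries, and the sums of those lists stand beside the factors they touch.

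In the GENCODE M21 annotation of GRCm38, Mitf lies on chromosome 6 (97807052 to 98021349, plus strand) and Tfec on the same chromosome (16833373 to 16898441, minus strand). Otx2 is on chromosome 14 (48657677 to 48673819, minus strand), Sox9 on chromosome 11 (112782224 to 112787760, plus strand), and Pax6 (105668900 to 105697364, plus strand) and Lhx2 (38339281 to 38369733, plus strand) are both on chromosome 2. The counts cover all exons of a gene, so the 8 annotated Mitf transcripts, 11 of Otx2 and 26 of Pax6 cannot be told apart, including the Mitf isoforms that start at different promoters in pigment epithelium and melanocytes. Exons of Otx2 share 168 bases (3.98% of their length) with other annotated genes. All 168 are shared with Gm49154 on the same strand, and 154 with the antisense RNA Otx2os1. Reads in those bases therefore cannot be assigned by strand, and the strand setting of the counting is not given in the sources used here. The exons of the other 5 genes overlap no other annotated exon.

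Start-site windows of 300 bases (250 before to 50 after the start) were available from RefSeq (GRCm38.p6) for 5 of the 6 genes, 12 windows in all. They were searched on both strands for TAATCC, the core OTX motif, and TAATTA, a homeodomain motif that LIM homeodomain proteins bind. TAATCC was in 2 of the 12 windows and in 7.06% of all 32851 windows of this length, and TAATTA was in 3 of 12 and in 5.29%. The windows with TAATCC belong to Otx2 and Mitf, a pair with one of the highest rank correlations below, and they are shown for that reason. Both run 5′ to 3′ on the gene's strand, with the matches of both motifs in capitals (GGATTA is TAATCC read on the other strand); the Otx2 window is chr14:48665060-48665359 (minus strand) and the Mitf window chr6:97929567-97929866 (plus strand). The E-boxes CACGTG and CATGTG were in 0 and 1 of the 12 windows, against 7.15% and 14.2% of all, and the SOX motif ACAAAG was in 1, against 18.7%. A match is a match of letters only.
Otx2: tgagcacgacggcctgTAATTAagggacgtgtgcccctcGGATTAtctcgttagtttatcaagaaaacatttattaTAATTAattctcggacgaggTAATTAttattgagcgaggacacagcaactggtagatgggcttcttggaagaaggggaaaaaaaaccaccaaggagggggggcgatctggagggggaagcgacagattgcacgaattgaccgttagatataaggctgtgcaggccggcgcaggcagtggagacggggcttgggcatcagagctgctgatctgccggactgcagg
Mitf: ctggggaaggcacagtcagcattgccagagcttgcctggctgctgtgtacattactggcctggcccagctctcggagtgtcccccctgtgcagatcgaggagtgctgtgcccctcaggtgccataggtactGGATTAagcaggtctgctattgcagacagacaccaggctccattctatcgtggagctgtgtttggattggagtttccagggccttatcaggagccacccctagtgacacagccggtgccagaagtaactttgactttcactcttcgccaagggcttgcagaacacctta

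None of the 6 factors differed between AAV-GSTA4 and AAV-GFP after adjustment in edgeR's quasi-likelihood test. Among all 15075 genes tested, edgeR called 0 at an adjusted p-value under 0.05 (0% of genes). The number was 0 in limma-voom and 201, none of them a member, in DESeq2. The transgene row hGSTA4 was thus not called by edgeR either, so a gene without a call may still differ. In edgeR 1794 genes had an unadjusted p-value under 0.05. Otx2 was higher in AAV-GSTA4 by 0.68 on the log2 scale and was the only member with an unadjusted p-value under 0.05, where 11.9% of all genes had one (5.27% higher and 6.63% lower). With TMM scaling it was also the only member whose groups did not overlap, where 12.0% of all genes did not (6.44% with AAV-GSTA4 higher). By library totals the groups of Otx2 overlapped and those of Pax6 did not. A count of 1 of 6 is near these background shares. Mitf, Sox9 and Lhx2 were at 1.51, 1.37 and 1.04 times their AAV-GFP level in the fit, and Pax6 and Tfec at 0.641 and 0.377 times. The median log2 fold change was 0.26 over the 6 members and -0.07 over all tested genes; with library totals in place of TMM scaling these medians were -0.02 and -0.37, and relative to the median of all genes Otx2 and Mitf were higher under both scalings.

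**Figure D1:**
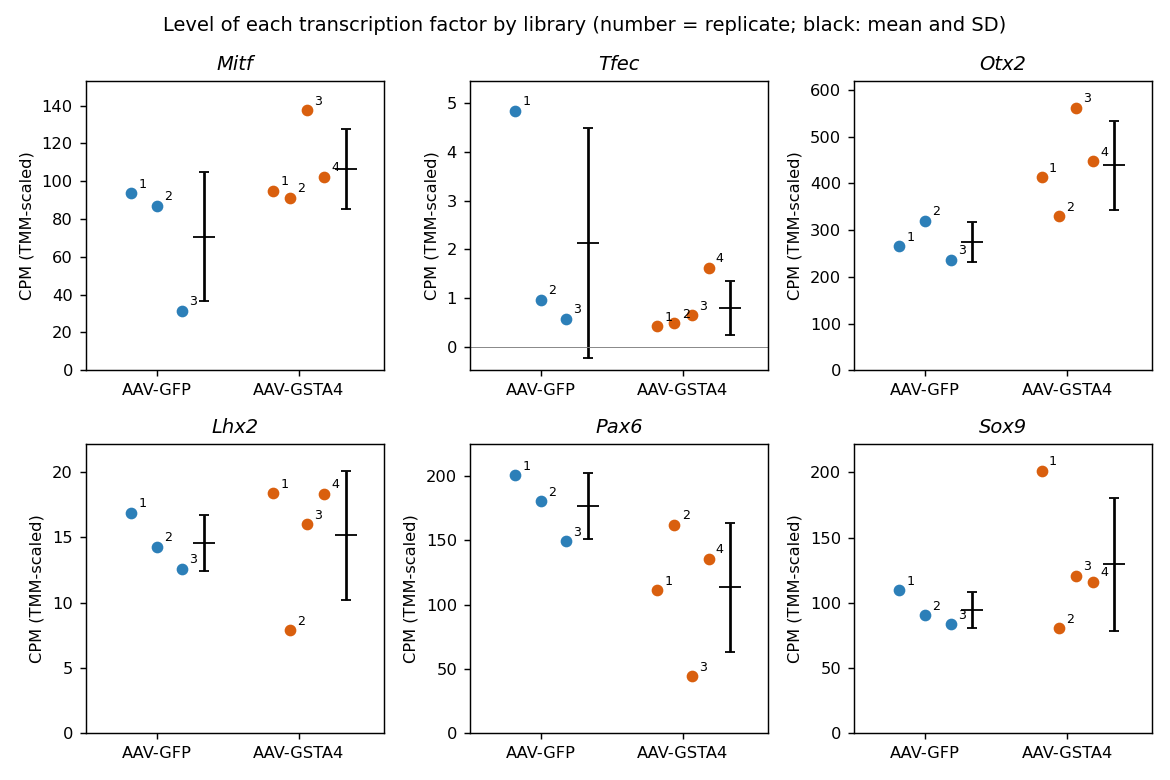
CPM of each factor (y axis, starting at 0 except for Tfec, whose SD reaches below 0) in the 3 AAV-GFP and 4 AAV-GSTA4 libraries; points are libraries with their replicate numbers, black bars the mean and SD. With TMM scaling, as drawn, Otx2 is the only factor whose groups do not overlap, from 237 to 320.4 CPM against 330.2 to 562 CPM. By library totals its groups overlap.

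Otx2 had the highest level of the 6, also per exon length. Across the 3 AAV-GFP replicates, in order of number, it was at 265, 320.4 and 237 CPM. Across the 4 AAV-GSTA4 replicates, in order of number, the values were 413, 330.2, 562 and 448 CPM. With TMM scaling all 4 AAV-GSTA4 libraries exceeded the 3 AAV-GFP libraries, but the nearest, AAV-GFP replicate 2 and AAV-GSTA4 replicate 2, were close. The means were 274 ± 42.5 CPM (n = 3, SD) and 439 ± 96.2 CPM (n = 4, SD), and the log2 fold change was 0.68 ± 0.26 (SE; 95% interval 0.09 to 1.26). The unadjusted p-value was 0.0274 and the adjusted p-value 0.382 in edgeR's test. By exact permutation of log2 CPM (two-sided, 35 relabellings, smallest possible p = 0.0286), p was 0.0571. Its spread within groups was small, with a within-group SD of 0.28 on the log2 scale, lower than in all but 18.5% of tested genes. The direction was the same in all 18 alternative fits, but the unadjusted p-value was above 0.05 without AAV-GFP replicate 1, AAV-GSTA4 replicate 3 or AAV-GSTA4 replicate 4, and with library totals (log2 fold change 0.39, edgeR p-value 0.113). The log2 fold change was 0.66 without AAV-GFP replicate 1 and 0.58 without AAV-GFP replicate 3. By library totals the groups overlapped. AAV-GSTA4 replicate 2 (6882 of 23066810 counts) then lay below AAV-GFP replicate 2 (8297 of 24724227 counts).

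Rod, cone and bipolar cells also make Otx2, and 0 of their listed genes passed the adjusted threshold in edgeR. Counts at an unadjusted p-value stand against the 6.63% of all genes that were lower. The 20 rod genes summed to 17932 to 47318 CPM in AAV-GFP and 10432 to 17705 CPM in AAV-GSTA4, with 17 of the 20 lower at an unadjusted p-value under 0.05 in edgeR. The 10 cone genes, led by Gnb3, summed to 449 to 1107 CPM and 277 to 487 CPM, with 5 lower by that measure, and the 11 bipolar cell genes, led by Trpm1 (also a pigment cell gene), to 750.1 to 825 CPM and 313 to 601 CPM, with 4 lower. Trpm1 alone was at 332 to 549 CPM in AAV-GFP and 175 to 449 CPM in AAV-GSTA4. It made up a large part of the bipolar sum, so that sum does not stand for bipolar cells alone. The cone sums overlapped between groups, and the rod sums did not. The rod genes Slc24a1 and Abca4 and the bipolar cell gene Grik1 had positive log2 fold changes of 0.38, 0.25 and 0.68. The part of rod, cone and bipolar cells in the Otx2 level was not tested. Crx, the photoreceptor paralogue of Otx2, was at 239 ± 122 CPM (n = 3, SD) in AAV-GFP and 110.03 ± 36.7 CPM (n = 4, SD) in AAV-GSTA4, a log2 fold change of -1.12 ± 0.41 (SE; unadjusted p-value 0.0208, adjusted p-value 0.374 in edgeR's test). With a rod score as covariate the log2 fold change of Otx2 was 0.69, and edgeR gave p-values of 0.0904 unadjusted and 0.580 adjusted. Because the rod sums did not overlap between groups, this fit cannot tell rod RNA and the group apart.

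**Figure D2:**
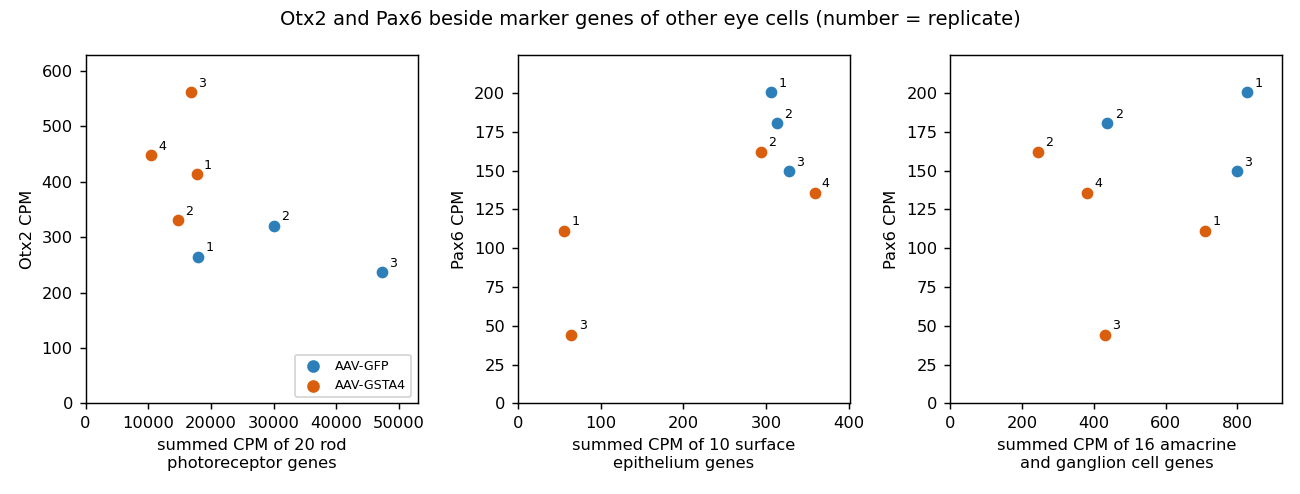
CPM of Otx2 or Pax6 (y axis) against the summed CPM of marker genes of other eye cells (x axis), 1 point per library with its replicate number. Otx2 is highest in the AAV-GSTA4 libraries, where rod genes sum to at most 17705 CPM. Pax6 is lowest (44.2 CPM) in AAV-GSTA4 replicate 3. There the surface epithelium genes sum to 64.8 CPM and the amacrine and ganglion cell genes to 431 CPM.

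Mitf, the master regulator of pigment cells, was at 93.7, 87.0 and 31.5 CPM across AAV-GFP replicates 1, 2 and 3. Across the 4 AAV-GSTA4 replicates, in order of number, the values were 95.04, 91.3, 138 and 102 CPM. The groups overlapped: AAV-GFP replicate 1 lay above AAV-GSTA4 replicate 2, and only AAV-GFP replicate 3 was far below the rest. The means were 70.7 ± 34.2 CPM (n = 3, SD) and 107 ± 21.2 CPM (n = 4, SD), and the log2 fold change was 0.59 ± 0.36 (SE; 95% interval -0.21 to 1.40; adjusted p-value 0.524 in edgeR's test). By exact permutation of log2 CPM, p was 0.0571. Without AAV-GFP replicate 3 the log2 fold change was 0.24, but it was 0.85 without AAV-GFP replicate 1 and 0.77 without AAV-GFP replicate 2. With library totals or limma-voom it was 0.37, and given the rod score as covariate it was 0.10. The 10 melanocyte genes, led by Mlana, which stand for the other pigment cell that makes Mitf, summed to 176 to 541 CPM in AAV-GFP and 198 to 338 CPM in AAV-GSTA4. Their part in the Mitf level was not tested.

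Tfec, the MiT family member expressed in early RPE, was near the lower limit of detection. Its counts across the AAV-GFP replicates 1, 2 and 3 were 104, 25 and 12, which is 4.85, 0.965 and 0.576 CPM. Across AAV-GSTA4 replicates 1 to 4 the counts were 8, 10, 11 and 44, which is 0.421, 0.480, 0.646 and 1.62 CPM. AAV-GFP replicate 1 was alone at a high value (95% Wilson interval 4.001 to 5.87 CPM, counting error only), and the next, AAV-GSTA4 replicate 4, was at 1.21 to 2.18 CPM by the same interval. The log2 fold change was -1.41 ± 0.92 (SE; 95% interval -3.48 to 0.66; adjusted p-value 0.556 in edgeR's test). It rested on AAV-GFP replicate 1, without which it was 0.05. It was -3.11 given the rod score as covariate (edgeR p-values 0.00952 unadjusted and 0.455 adjusted) and -0.59 in limma-voom. The 10 macrophage genes, led by Csf1r, summed to 471 to 922 CPM in AAV-GFP and 697 to 957 CPM in AAV-GSTA4. Csf1r had a positive log2 fold change of 1.11, while the other 9 had negative ones (median over the 10, -0.40). At an unadjusted p-value under 0.05 in edgeR 1 was higher and 2 lower, against 5.27% and 6.63% of all genes. The part of macrophages in the Tfec level was not tested. Of the other MiT genes, Tfeb was at 12.04 ± 0.477 CPM (n = 3, SD) and 9.38 ± 0.536 CPM (n = 4, SD), and Tfe3 at 26.4 ± 2.87 CPM (n = 3, SD) and 33.2 ± 9.24 CPM (n = 4, SD). Their unadjusted p-values were 0.194 and 0.237 in edgeR's test across all genes, and the groups did not overlap for Tfeb.

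Pax6, which patterns the optic cup, tended to lower values in AAV-GSTA4 without passing the test. It was at 201, 180.5 and 149.5 CPM across AAV-GFP replicates 1, 2 and 3. Across the 4 AAV-GSTA4 replicates, in order of number, the values were 111, 162, 44.2 and 136 CPM. With TMM scaling the groups overlapped through AAV-GSTA4 replicate 2, and AAV-GSTA4 replicate 3 was far below every other library. The means were 177 ± 25.8 CPM (n = 3, SD) and 113 ± 50.6 CPM (n = 4, SD), and the log2 fold change was -0.64 ± 0.38 (SE; 95% interval -1.49 to 0.21; adjusted p-value 0.513 in edgeR's test). By exact permutation of log2 CPM, p was 0.143. Without AAV-GSTA4 replicate 3 the log2 fold change was -0.36, and given the rod score as covariate it was -1.21. By library totals the groups of Pax6 did not overlap. The log2 fold change was then -0.91 (edgeR p-values 0.0376 unadjusted and 0.295 adjusted).

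Among the lists for other cells that make Pax6, the surface epithelium sum was low in AAV-GSTA4 replicates 1 and 3, which had the least Pax6. Its genes did not all follow this. Krt12 was at 2.56 CPM in AAV-GFP replicate 1, the library with the most Pax6, and Dsp was higher in each AAV-GSTA4 library than in any AAV-GFP library. The 10 surface epithelium genes, led by Krt4, summed to 306 to 327 CPM in AAV-GFP, and to 56.2, 294, 64.8 and 358 CPM across AAV-GSTA4 replicates 1 to 4. The 16 amacrine and ganglion cell genes, led by Slc6a9, summed to 438 to 826 CPM in AAV-GFP and 245 to 709 CPM in AAV-GSTA4. At an unadjusted p-value under 0.05 in edgeR 10 were lower and 1 was higher, against 6.63% and 5.27% of all genes. The 13 lens genes, led by Cryaa, summed to 2054 to 9332 CPM in AAV-GFP. Across AAV-GSTA4 replicates 1 to 4 they summed to 17563, 86264, 3081 and 8625 CPM. All 11 that were tested had positive log2 fold changes. By the same measure 7 of them were higher, against 5.27% of all genes, but the groups overlapped for all except 1 of the 11. The library with the highest lens sum, AAV-GSTA4 replicate 2, was the AAV-GSTA4 library with the most Pax6. The part of these cells in the Pax6 level was not tested.

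Sox9, a factor for the promoters of visual cycle genes, was at 109.7, 90.5 and 83.3 CPM across AAV-GFP replicates 1, 2 and 3. It was at 201, 80.4, 121 and 116 CPM across AAV-GSTA4 replicates 1 to 4. The AAV-GSTA4 group held both the highest library, replicate 1, and the lowest, replicate 2. Its log2 fold change was 0.46 ± 0.31 (SE; 95% interval -0.23 to 1.14; adjusted p-value 0.563 in edgeR's test), 0.18 without AAV-GSTA4 replicate 1 and 0.19 with library totals. By exact permutation of log2 CPM, p was 0.314.

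Lhx2, which sets the optic vesicle apart from neighbouring brain, was at 16.9, 14.3 and 12.6 CPM across AAV-GFP replicates 1, 2 and 3. It was at 18.4, 7.87, 15.985 and 18.3 CPM across AAV-GSTA4 replicates 1 to 4. AAV-GSTA4 replicate 2 was the lowest library for Lhx2, as for Sox9, and it was also the library with the most lens RNA. The log2 fold change was 0.05 ± 0.33 (SE; 95% interval -0.69 to 0.80; adjusted p-value 0.966 in edgeR's test), whereas the difference of mean log2 CPM was -0.01 (exact permutation test, p = 1). The sign differed between these measures and across scalings, so no direction is given. Müller glia make both Sox9 and Lhx2; of the 15 glial genes 7 had positive and 8 negative log2 fold changes, and their sum, 18409 to 47364 CPM and 44783 to 75882 CPM, was mostly Rgr, which is also an RPE gene.

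**Figure D3:**
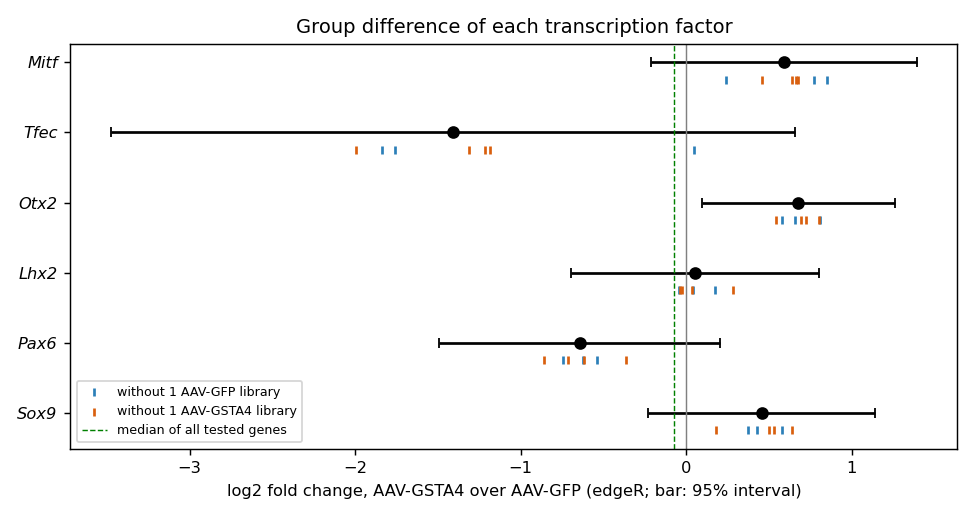
Log2 fold change of AAV-GSTA4 over AAV-GFP (x axis) for each factor, with black points and bars for the edgeR value and its 95% interval over all 7 libraries and ticks for the fits that leave out 1 library; the dashed line is the median of all tested genes (-0.07). The interval excludes 0 only for Otx2 (0.09 to 1.26); the Tfec tick at 0.05 is the fit without AAV-GFP replicate 1.

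Per length of exon sequence, the factors followed the order Otx2, Sox9, Mitf, Pax6, Lhx2 and Tfec. The means over 7 libraries were 87.2, 27.7, 14.7, 12.02, 3.39 and 0.244 CPM per kb of annotated exons. Otx2 was apart from Sox9, and Lhx2 from Tfec, with no overlap over the libraries. The ranges of Sox9 and Mitf overlapped, although Sox9 was above Mitf in each of the 7 libraries, and Pax6 was above Lhx2 in each. Mitf and Pax6 did not keep an order: Pax6 per kb was above Mitf in 3 of 3 AAV-GFP libraries and below it in 4 of 4 AAV-GSTA4 libraries. In CPM without exon length, Pax6 was above Mitf in every library except AAV-GSTA4 replicate 3. The share of other gene pairs that split by group in this way was not computed. The exon lengths are those of all annotated transcripts together, so the order between genes depends on which transcripts are used.

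Counts on Y-linked genes divided the libraries into AAV-GFP replicate 1 with AAV-GSTA4 replicates 3 and 4 (307 to 465 CPM) and the other 4 (2.83 CPM or lower). Within the first class Otx2 was at 265 CPM in AAV-GFP and 448 to 562 CPM in AAV-GSTA4, and within the second at 237 to 320.4 CPM and 330.2 to 413 CPM. Mitf was likewise at 93.7 CPM against 102 to 138 CPM, and at 31.5 to 87.0 CPM against 91.3 to 95.04 CPM. Pax6 was at 201 CPM against 44.2 to 136 CPM in the first class, and its groups overlapped in the second. With the Y-linked score as covariate the log2 fold changes were 0.62 for Otx2, 0.51 for Mitf and -0.63 for Pax6, with adjusted p-values of 0.519, 0.647 and 0.623 in edgeR.

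Each factor was also set against the summed CPM of 25 mature RPE genes, led by Rgr. Rpe65, Rlbp1 and Lrat of the visual cycle were among them. Whether this sum followed the share of RPE RNA or the expression of these genes was not tested. That sum was 80071, 62598 and 27855 CPM across AAV-GFP replicates 1 to 3 and 96522, 68893, 126643 and 103003 CPM across AAV-GSTA4 replicates 1 to 4. It was lowest in AAV-GFP replicate 3. Per 1000 CPM of these genes, Otx2 was at 3.31, 5.12 and 8.51 CPM in AAV-GFP and at 4.28, 4.79, 4.44 and 4.35 CPM in AAV-GSTA4. The AAV-GSTA4 values lay inside the range of AAV-GFP, so the separation seen in the TMM-scaled level of Otx2 was not present in this ratio. The difference of the mean log2 ratio was -0.23 (exact permutation test, p = 0.629), and 0.12 without AAV-GFP replicate 3. The position inside the range rested on AAV-GFP replicate 1. Without that library all AAV-GSTA4 values lay below the AAV-GFP values. The difference was then -0.56 (exact permutation test, p = 0.0667, the smallest possible).

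Mitf followed the RPE genes most evenly of the 6, at 1.17, 1.39 and 1.13 CPM per 1000 CPM in AAV-GFP and 0.985, 1.33, 1.09 and 0.995 CPM in AAV-GSTA4. The low Mitf level of AAV-GFP replicate 3 was thus matched by its low RPE sum, and the difference of the mean log2 ratio was -0.17 (exact permutation test, p = 0.257). Lhx2 was lower in all AAV-GSTA4 libraries by this ratio, at 0.114 to 0.190 CPM against 0.211 to 0.452 CPM per 1000 CPM, a log2 difference of -0.91 (exact permutation test, p = 0.0286, the smallest possible). Pax6 was also lower in all, at 0.349 to 2.35 CPM against 2.51 to 5.37 CPM, a log2 difference of -1.68 (exact permutation test, p = 0.0571). This happened in 2 of the 6 members and in 22.0% of the 14202 genes with counts in every library, since 95.6% of those genes were lower by this ratio, with a median log2 difference of -0.92. Lhx2 lay at the 50.6th percentile of these differences and Pax6 at the 15.005th, while Mitf and Otx2 lay at the 92.5th and 90.9th. The differences for Sox9 and Tfec were -0.51 and -1.93, with p = 0.314 and p = 0.0857 in the exact permutation test; without AAV-GFP replicate 3 that of Sox9 was -0.15. The direction depended on the reference list. Against 17 melanin genes the log2 differences were 0.74 for Mitf, 0.68 for Otx2, 0.40 for Sox9, 0.0042 for Lhx2 (exact permutation test, p = 1) and -0.77 for Pax6. Without Rgr in the RPE list that of Lhx2 was -0.79 (exact permutation test, p = 0.0571), and without AAV-GFP replicate 3 it was -0.56.

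**Figure D4:**
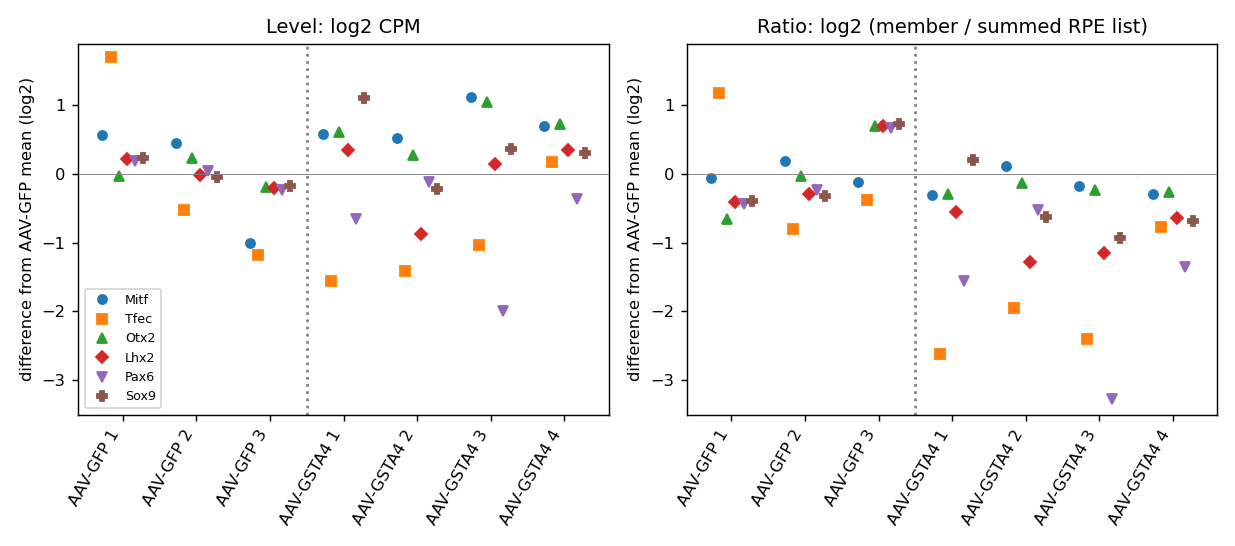
Log2 CPM of each factor (left) and its log2 ratio to the summed mature RPE genes (right), each as the difference from the AAV-GFP mean (y axis, log2 units) for the 7 libraries (x axis). In the ratio, the AAV-GSTA4 values of Otx2 lie inside its AAV-GFP range, while Pax6 and Lhx2 are lower in each AAV-GSTA4 library than in any AAV-GFP library.

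Across the 7 libraries, 15 pairs of factors were compared by their log2 CPM. Mitf and Otx2 went together, with Pearson r = 0.77 (exact permutation p = 0.0232, adjusted over the 15 pairs 0.174) and a rank correlation (Spearman rho) of 0.89 (exact permutation p = 0.0123, adjusted 0.0923). Without the 2 libraries most extreme in Mitf r was 0.65, and it was 0.62 for deviations from the group means. Otx2 and Pax6 went in opposite directions, with r = -0.80 (exact permutation p = 0.0139, adjusted 0.174) and rho = -0.75 (exact permutation p = 0.0663, adjusted 0.249); r was -0.89 without the 2 libraries most extreme in Otx2 and -0.70 for deviations from the group means. Sox9 and Lhx2 had r = 0.71 (exact permutation p = 0.0990, adjusted 0.495) and rho = 0.89 (exact permutation p = 0.0123, adjusted 0.0923), and r was 0.89 without the 2 libraries most extreme in Sox9. None of the 15 pairs passed after adjustment. The relations were not computed within a group, since these hold 3 and 4 libraries.

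Genes with the most similar pattern over the 7 libraries were named for each factor, as a description, among 11105 other genes whose log2 CPM averaged 2 or more. For Mitf they were Trpm3 (a cation channel), Plbd1 and Kcnk13, with r from 0.99 to 1.00; Trpm3 was at 516 CPM in AAV-GFP replicate 3 and at 1577 to 2721 CPM elsewhere. For Otx2 they were Tmem199, Phtf2 and Alkbh6 (r = 0.99 each), and for Sox9 the adrenergic receptor gene Adra2c (r = 0.99), Zfp629 and Zfp438 (0.98 each). For Pax6 they were Aldoc (a glycolytic aldolase, r = 0.99), Tnfrsf21 (0.98) and Mapk4 (0.97). For Tfec they were Cldn10 (a claudin, r = 0.96), Agps and Mier1 (0.95 each), and for Lhx2 Slc39a1, Gnaq (0.98 each) and Gatad2b (0.97). All these correlations were picked as the highest of 11105 and share the same libraries.

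The nearest relatives of the 6 factors and the other eye field regulators were counted beside all tested genes, of which 44.6% had positive log2 fold changes and 6.63% were lower at an unadjusted p-value under 0.05 in edgeR. Of 10 relatives (other MiT, OTX, SOXE, PAX and LIM homeodomain genes) 8 were expressed enough to be tested, 3 with positive and 5 with negative log2 fold changes (-2.00 to 0.50), with a median log2 fold change of -0.55. The ones with an unadjusted p-value under 0.05 were Crx, above, and Lhx9, a close homologue of Lhx2, at 4.70 ± 3.81 CPM (n = 3, SD) and 1.17 ± 0.737 CPM (n = 4, SD). Pax2 and Pax4 were not tested because of low counts. Of 14 eye field and optic cup regulators 13 were tested, 2 with positive and 11 with negative log2 fold changes (-1.93 to 0.80), with a median log2 fold change of -0.72. Only Rax, an eye field homeobox gene that stays on in the neural retina, had an unadjusted p-value under 0.05, at 16.6 ± 7.82 CPM (n = 3, SD) and 4.35 ± 3.55 CPM (n = 4, SD), and the log2 fold change was -1.93 ± 0.63 (SE; adjusted p-value 0.363 in edgeR's test). Six3 was at 18.1 ± 1.97 CPM (n = 3, SD) and 18.7 ± 7.55 CPM (n = 4, SD).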

How the data were processed

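The authors deposited raw read counts per gene symbol, 1 column per library; STAR 2.7.1a and featureCounts 1.6.2 are named in the submitters' processing notes, with mouse build GRCm38 and a human build. Annotation release, strand setting and multi-mapping rule are not given in the sources used here. Full-length cDNA was amplified by PCR from low-input total RNA and cut by transposase, per the labels' protocols, with no mention of molecular identifiers, so intervals cover counting error only. The groups come from the sample titles, and each column was matched through the library names; 0 columns were unmatched. There were 24 repeated symbols (26 surplus rows); each symbol refers to its row with most counts.

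All genes were tested with edgeR 4.0.16 (R 4.3.3), quasi-likelihood F-test, TMM scaling, default expression filter, robust dispersions and group as the only factor, with Benjamini-Hochberg adjustment over all genes and a threshold of 0.05. Log2 CPM used a prior count of 2. Standard errors are the log2 fold change over the square root of F. Single values were compared by exact two-sided permutation tests. The factors and the gene lists were chosen with earlier results of these data known. Named were the 6 factors, the 3 genes most correlated with each, and in 5 related lists up to 3 genes with the smallest unadjusted p-values under 0.05; Tfeb, Tfe3 and Six3 were added after their values were seen. Alternatives included other scalings, filters, covariates, DESeq2 1.42.0, limma 3.58.1 (voom), replicate blocks and leaving out each library. The test across genes was checked on simulated counts.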

Additional observations from a re-analysis of the deposited data

How the results depend on the processing

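Over 18 alternative fits 0 of the 6 factors passed the adjusted threshold (16 fits for Tfec, which had too few counts for a minimum of 10 in every library and no adjusted value in DESeq2). Otx2, Mitf, Sox9 and Pax6 kept their direction in all 18; adjusted p-values for Otx2 ran from 0.122 (DESeq2) to 0.865. The log2 fold change of Lhx2 was -0.22 with library totals, -0.14 with the rod score, -0.10 with the replicate block by title number and -0.00077 with the Y-linked score, and from -0.040 to 0.28 with 1 library left out; that of Tfec ran from -2.00 to 0.048 there (0.048 without AAV-GFP replicate 1). The count of factors with an unadjusted p-value under 0.05 was 2 in limma-voom (Otx2, Pax6) and with the rod score (Pax6, Tfec), 0 with the block by title number, and 0 to 2 with 1 library left out (0 without AAV-GFP replicate 1 or AAV-GSTA4 replicate 3 or 4, 2 without AAV-GSTA4 replicate 2). With library totals it was 1, but Pax6 in place of Otx2. Over all genes, adjusted calls were 201 in DESeq2, 1 with the block by title number (hGSTA4), 1 with the rod score (Cyp2f2) and 0 to 1 with 1 library left out (hGSTA4, without AAV-GSTA4 replicate 3); unadjusted calls were 3293 in limma-voom, 833 and 1170 with the blocks by title and library number, and 1032 to 1987 with 1 library left out. The difference in log2 CPM of Lhx2 ran from -0.13 to 0.27 with 1 library left out. The ratios depended on the reference list: against 17 melanin genes the log2 differences were 0.74 for Mitf, 0.68 for Otx2, 0.40 for Sox9 and 0.0042 for Lhx2, and without Rgr that of Lhx2 was -0.79 (exact permutation p = 0.0571). With 1 library left out they ran from -0.56 to 0.12 for Otx2 (0.12 without AAV-GFP replicate 3) and from -1.11 to -0.56 for Lhx2, where the smallest possible p is 0.0667 or 0.100 (exact permutation test). The cause of these changes was not tested.
Same-numbered libraries had deviations that correlated at -0.13 to 0.01, so the replicate blocks rest on a number alone; with the block by title number the unadjusted edgeR p-value of Otx2 was 0.158, and with the block by library number the log2 fold changes of Tfec and Pax6 were -0.79 and -0.99.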

Other observations

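Of 25 mature RPE genes, several of them known targets of these factors, 21 had positive and 4 negative log2 fold changes (median log2 fold change 0.71, against -0.07 over all tested genes, of which 44.6% were positive, 5.27% higher and 6.63% lower at an unadjusted p-value under 0.05 in edgeR), and 9 were higher at an unadjusted p-value under 0.05 in edgeR, with 0 past the adjusted threshold. The smallest p-values were those of Stra6, the retinol receptor, at 809.6 ± 112 CPM (n = 3, SD) and 1928 ± 615 CPM (n = 4, SD), Ezr, the microvillus linker ezrin, at 399.7 ± 73.5 CPM (n = 3, SD) and 801 ± 193 CPM (n = 4, SD), and Lrat, which esterifies retinol, at 1315 ± 553 CPM (n = 3, SD) and 2913 ± 551 CPM (n = 4, SD). Of 17 pigment genes 7 had positive and 10 negative log2 fold changes (median -0.26); Myo7a and Gpr143 were higher, with log2 fold changes of 0.91 ± 0.23 (SE) and 0.96 ± 0.33 (SE), and Mreg, a melanosome transfer gene, was lower at -1.39 ± 0.32 (SE), each with an unadjusted p-value under 0.05 and an adjusted p-value of 0.363 to 0.373 in edgeR.

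Of 24 other regulators and signals linked to RPE fate, 9 had positive and 15 negative log2 fold changes (median -0.22). The split of signs here and in the pigment genes is near that of all tested genes. At an unadjusted p-value under 0.05 in edgeR 1 of the 24 was higher and 6 were lower, against 5.27% and 6.63% of all genes. The count of 6 is above its background share, but the list was chosen with earlier results of these data known. It is therefore no evidence about these regulators as a set. The higher one was Bmp4, a ligand that favours RPE fate in the optic vesicle, at 83.1 ± 30.8 CPM (n = 3, SD) and 169 ± 47.4 CPM (n = 4, SD), with no overlap between groups. Klf4 and Smad1, which transduces BMP signals, had log2 fold changes of -1.44 ± 0.47 (SE) and -0.92 ± 0.37 (SE), with no overlap either. Adjusted p-values were 0.363 to 0.388 in edgeR.

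The ratios of Mitf and Otx2 to Pax6 within a library were examined after the levels were seen and are given without a test. The share of other gene pairs with separated ratios was not computed, so a separation here is no further result. For AAV-GFP, in order of replicate number, the ratio of Mitf to Pax6 was 0.467, 0.482 and 0.210. For AAV-GSTA4 it was 0.853, 0.563, 3.12 and 0.755. The ratio of Otx2 to Pax6 was 1.32 to 1.78 in AAV-GFP and 2.04 to 12.7 in AAV-GSTA4. Both ratios were highest in AAV-GSTA4 replicate 3, which had the fewest hGSTA4 counts of its group (45).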
